A study of Mus musculus with 8 samples.

Results

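Splenic DCs sorted after overnight LPS were compared with untreated splenic DCs, 1 array against 1. LPS, or lipopolysaccharide, is the outer-membrane component of gram-negative bacteria that signals through Toll-like receptor 4. RNA was measured on Affymetrix Mouse Gene 2.0 ST arrays, which carry 1 or more probe sets for most genes. The LPS array holds DCs from the spleen of wild type C57BL/6 mice, 8 weeks old, treated with LPS overnight. The Control array holds DCs from the spleen of wild type C57BL/6 mice of the same age with no treatment given in the labels. The methods describe injection of LPS by the tail vein or intraperitoneally. For other assays of the study the methods and legends describe isolation of DCs by CD11c, in one case with MHC class II, and a dose of LPS given overnight, without tying either to these arrays. The number of mice per array is not given in the sources used here. The series also holds 3 untreated WT arrays of Lkb1f/f mice, 8 weeks old and of the same strain background, which serve below as a yardstick, and 3 arrays of Cd11cCreLkb1f/f mice. With 1 array a condition there is no replicate check, so every difference below is a description of these 2 arrays, with no test.

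The comparison covered probe sets with 1 gene symbol whose values differed between both arrays and whose mean was above 5 on the log2 scale. These were 6656 probe sets of 6482 genes, out of 22180 genes with 1 symbol on the array. Of the 23521 probe sets with 1 symbol, 12465 had identical values on the LPS and Control arrays and were left out, and 4400 differed but were too dim. Just inside the floor, Sumo3 had log2 values of 5.04 with LPS and 4.96 in Control, and just outside it Mical2 had 4.75 with LPS and 5.25 in Control. A gene bright on 1 array and dim on the other can pass this floor. A gene is called higher or lower below where the arrays differed by at least 1.5-fold. By the brightest probe set of each gene, 796 of 6459 genes were higher with LPS (12.3%) and 936 were lower (14.5%), and the other 4727 lay within 1.5-fold. Those shares are the background for every gene class below. The median log2 difference over these genes was −0.05, and over all genes with a symbol it was 0.

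DCs take up antigen in tissues and, after a microbial signal, change from capture to presentation. In this maturation, signalling through Toll-like receptor 4 activates NF-κB and, through type I interferon, STAT transcription factors. Mature DCs raise costimulatory molecules and the chemokine receptor CCR7, which leads them to T cells, and they reduce new synthesis of MHC class II as they stabilise the peptide-loaded molecules at the surface. The spleen holds conventional DCs of type 1 (cDC1), which present antigen to CD8+ T cells, and of type 2 (cDC2), part of which express the surface protein ESAM and need Notch2. Acute-phase and interferon-stimulated genes were set aside from the largest changes named below. The class counts keep them where a class shares genes with those lists, as for MHC class I, coinhibitory, SOCS and monocyte genes. Of the genes called, 127 of the higher ones and 8 of the lower ones belonged to those lists, which left 669 higher and 928 lower genes.

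**Figure D1:**
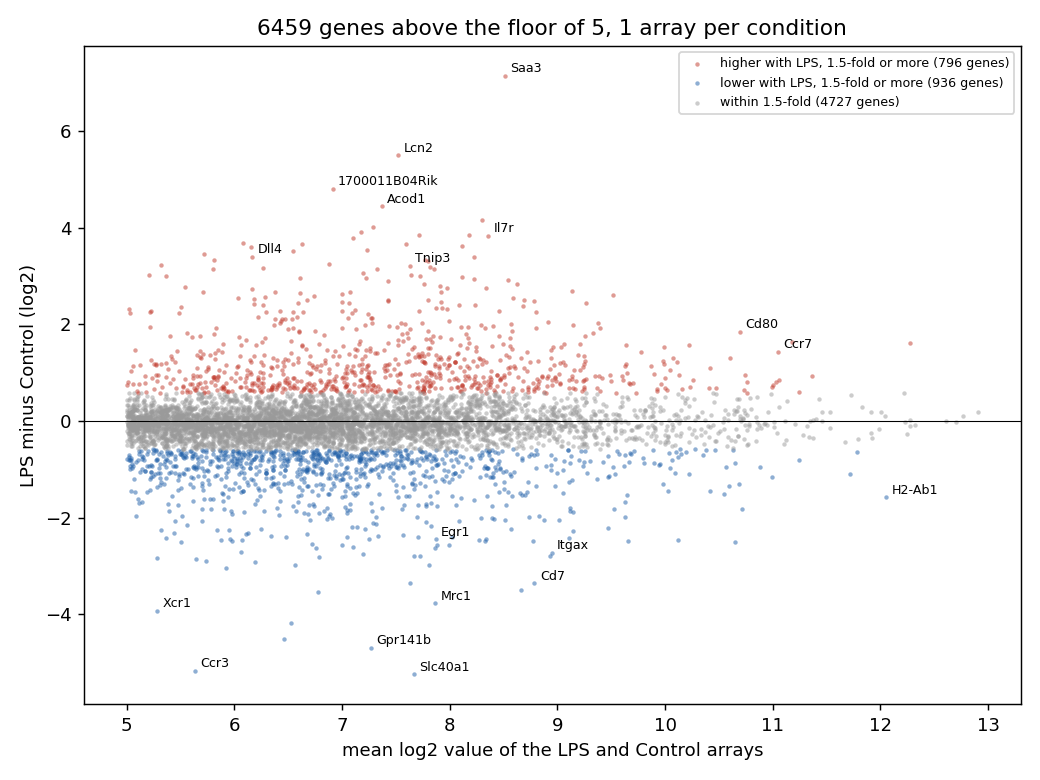
Log2 difference, LPS minus Control, against the mean log2 value of both arrays for each gene of the comparison. Each point is 1 gene by its brightest probe set, the y axis gives log2 units, and points past 1.5-fold are coloured by direction. There were 796 genes higher with LPS, 936 lower and 4727 within 1.5-fold.

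The untreated WT arrays served as a yardstick, but they are of another mouse line. Their median log2 values were 4.64, 4.09 and 3.40, against 4.14 for LPS and for Control. Differences among untreated arrays therefore mix the DC preparation with mouse line, sex and array processing. By probe set, 823 were higher and 950 lower. After quantile normalization of the LPS, Control and 3 WT arrays, 769 of the 823 higher probe sets (93.4%) lay above all 4 untreated arrays, against 30.1% of all probe sets compared. Below all 4 untreated arrays lay 837 of the 950 lower ones (88.1%), against 29.4%. Control itself took part in the choice of these probe sets, so the shares are a description. Xist, the transcript of the inactive X chromosome, was at 3.11 on both the LPS and Control arrays and at 10.68 on WT replicate 2, so the WT arrays mix sexes. WT replicate 3 held more neutrophil signal, with S100a8 at 10.76 against 4.35 in LPS and 2.61 in Control after the same normalization. Control lay 1.5-fold above the WT mean at 808 of the probe sets compared and 1.5-fold below it at 430, and the median SD over the WT arrays was 0.30 on the log2 scale. Against the WT mean, 742 of the higher and 743 of the lower probe sets were again past 1.5-fold in the same direction, and 3 and 3 were past it in the opposite one.

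Outside the acute-phase and interferon lists, 1700011B04Rik, a gene with no role named here, had the largest increase, with a log2 value of 9.31 in LPS DCs and 4.51 in Control DCs, which is 28.0-fold. Acod1, the enzyme that makes itaconate from a tricarboxylic acid cycle intermediate, had 9.59 with LPS and 5.15 in Control, or 21.7-fold. Vdr, the vitamin D receptor, had 9.29 with LPS and 5.28 in Control. Cytokine receptor genes were among the largest increases. Il2ra, the CD25 chain of the interleukin-2 receptor, had 9.13 in LPS DCs and 5.22 in Control DCs, and Il7r had 10.28 with LPS and 6.44 in Control.

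Several of the next genes encode proteins of the cell surface or of the space around it. Ms4a6d, a 4-pass membrane protein of myeloid cells, had 9.65 with LPS and 5.79 in Control. Its relative Ms4a4a had 9.43 with LPS and 5.77 in Control. Slamf1, a self-binding receptor of activated lymphocytes and DCs, had 7.95 with LPS and 4.35 in Control. Dll4, a Notch ligand, had 7.86 with LPS and 4.46 in Control. These 4 genes differed by 10.5-fold (Dll4) to 14.5-fold (Ms4a6d). The metalloproteinases Mmp25 and Mmp14, both held at the cell membrane, had 9.45 and 9.41 with LPS and 6.15 and 6.22 in Control. Marco, a scavenger receptor for bacteria, had 9.43 with LPS and 6.10 in Control, and Chil1, a secreted chitinase-like protein, had 8.46 with LPS and 4.79 in Control.

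The rest of the 20 largest increases were Slc27a3 (a fatty acid transport protein), Npr1 (the receptor of atrial natriuretic peptide), Ramp3 (a receptor activity-modifying protein), Tnip3 (an NF-κB feedback inhibitor), Dock9 (an activator of Cdc42), Insl6 (an insulin-like peptide) and Ktn1 (a kinesin-binding protein), at 3.14 to 3.46 log2. On all 20, LPS lay above every untreated array. In 7 of the 20, the Control value was at or under the floor of 5, where a fold depends on dim signal.

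**Figure D2:**
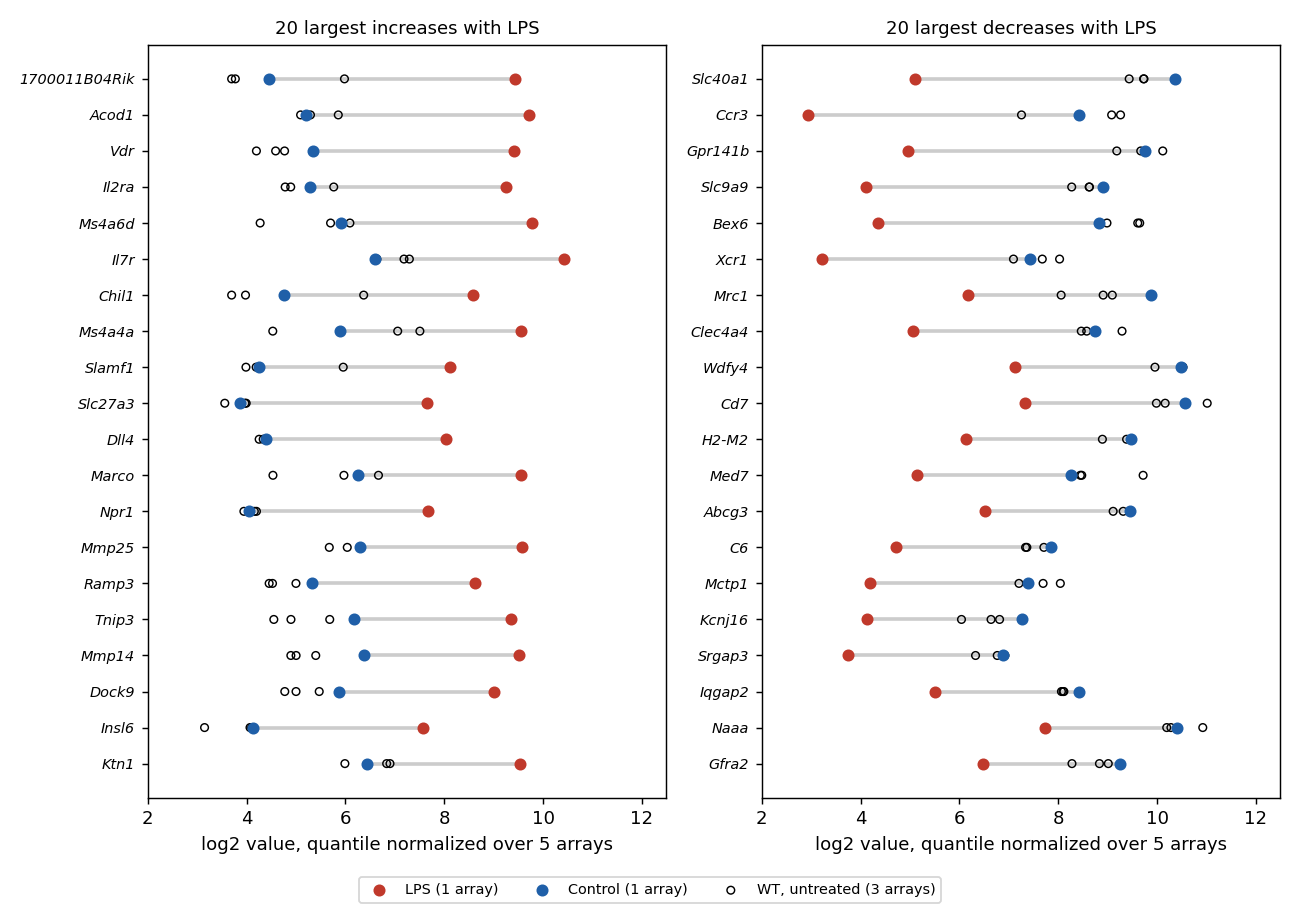
Log2 values, quantile normalized over 5 arrays, of the 20 largest increases and 20 largest decreases outside the acute-phase and interferon lists. Red points are LPS (1 array), blue points Control (1 array) and open circles the 3 untreated WT arrays, and the LPS value lies outside the 4 untreated values for all 40 genes.

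The promoters of these genes were searched for an NF-κB-type motif, because NF-κB carries the signal of Toll-like receptor 4. Of the 20 genes with the largest increases, 18 had a promoter in RefSeq (build GRCm38.p6), and 6 of those held a match in the 250 bases before to 50 after the start of the gene. Of the 20 largest decreases, 16 had a promoter, and 2 of those held a match (Ccr3 and H2-M2). The stretches below are 100 bases each from within the 250 before the start, 5′ to 3′ on the strand of the gene, with the bases that match on either strand in capitals. The first base of the match lies 201 (Il2ra), 179 (Chil1), 247 (Ms4a4a), 88 (Mmp25), 51 (Ramp3) and 54 (Tnip3) bases upstream of the start. They lie at chr2:11642546-11642645 (Il2ra), chr1:134181932-134182031 (Chil1), chr19:11375238-11375337 (Ms4a4a), chr17:23645303-23645402 (Mmp25, minus strand), chr11:6658433-6658532 (Ramp3) and chr6:65590298-65590397 (Tnip3).
Il2ra: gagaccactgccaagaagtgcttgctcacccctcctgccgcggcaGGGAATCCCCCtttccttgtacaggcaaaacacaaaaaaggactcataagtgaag
Chil1: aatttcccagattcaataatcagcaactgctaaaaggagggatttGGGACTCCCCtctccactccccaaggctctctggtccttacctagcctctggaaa
Ms4a4a: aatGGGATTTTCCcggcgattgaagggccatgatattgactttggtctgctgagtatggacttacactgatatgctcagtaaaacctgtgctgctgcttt
Mmp25: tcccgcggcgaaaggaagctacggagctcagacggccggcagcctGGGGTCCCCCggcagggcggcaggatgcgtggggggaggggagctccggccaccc
Ramp3: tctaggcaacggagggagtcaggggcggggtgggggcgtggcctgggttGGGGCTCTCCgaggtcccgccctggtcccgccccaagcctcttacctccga
Tnip3: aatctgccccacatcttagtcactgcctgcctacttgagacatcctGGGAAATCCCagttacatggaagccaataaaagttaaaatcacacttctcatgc
A match is a description of letters and not a bound site.

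Over all genes at least 2-fold higher and outside both lists, 32 of 254 promoters held this motif (12.6%). The share was 6.3% of the 315 promoters of genes at least 2-fold lower, 6.5% of the 5154 promoters of all genes compared and 5.1% of the 27025 promoters in the table. For the acute-phase and interferon genes at least 2-fold higher, it was 13.6% of 66 promoters, so the NF-κB share did not set the 2 groups of higher genes apart. The interferon motif ISRE (GAAA, any 2 bases and GAAA again, on either strand) was searched too. The interferon list is itself made of interferon-stimulated genes. ISRE was found for 37.9% of the 66 acute-phase and interferon genes at least 2-fold higher. For the 254 others that were higher the share was 4.7%, and for all genes compared 4.3%. The myeloid factor motif of PU.1 (GAGGAAGT, either strand) was found for 9.5% of the lower genes and 5.5% of the higher ones. Its share was 4.7% of all genes compared and 3.7% of all genes with a promoter. The composite motif EICE (GGAA, any 2 bases and GAAA, either strand) shares its second GAAA with ISRE but differs from it at the second base. It was found in 4.3% of the higher, 4.8% of the lower and 3.6% of all genes compared. The AP-1 motif was found for 16.7% of the acute-phase and interferon genes, 6.3% of the other higher genes, 5.7% of the lower ones and 4.7% of all genes compared. The motifs were chosen after the values were seen, and the shares were not tested.

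By the brightest probe set of each gene, the 5 largest decreases outside both lists were in Slc40a1, Ccr3, Gpr141b, Slc9a9 and Bex6. The largest decrease of any probe set compared, −5.87 log2, was in a dimmer probe set of its gene and is not described here. Slc40a1, the iron exporter ferroportin, had a log2 value of 5.05 in LPS DCs and 10.29 in Control DCs, 37.8-fold lower. Ccr3, a chemokine receptor best known from eosinophils, had 3.05 with LPS and 8.21 in Control, 35.9-fold lower. Xcr1, the chemokine receptor that defines cDC1, had 3.32 with LPS and 7.24 in Control, 15.1-fold lower. Mrc1, the macrophage mannose receptor, had 5.98 with LPS and 9.75 in Control. Clec4a4, the lectin DCIR2 of cDC2, had 5.01 with LPS and 8.55 in Control. These genes mark different cells, and each was lower with LPS than on all 4 untreated arrays.

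Slc9a9, an endosomal sodium-proton exchanger, had 4.21 with LPS and 8.71 in Control. Gpr141b, an orphan receptor, had 4.92 with LPS and 9.62 in Control. Wdfy4, which cDC1 need for cross-presentation, had 6.91 with LPS and 10.41 in Control. Cd7, an immunoglobulin-type surface protein, had 7.11 with LPS and 10.47 in Control, and H2-M2, a non-classical MHC class I gene, had 5.95 with LPS and 9.31 in Control. The remaining genes of the 20 largest decreases were Bex6, Med7, Abcg3, C6, Mctp1, Kcnj16, Srgap3, Iqgap2, Naaa and Gfra2, with log2 differences of −4.17 (Bex6) to −2.79 (Gfra2). In 9 of the 20, the LPS value was at or under 5.

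Some of these genes lie beside others that moved. Il15ra, whose product presents interleukin-15 to other cells, lies 11978 bases from Il2ra and had 9.22 in LPS DCs and 6.23 in Control DCs. Slc27a3 and Npr1 lie 59756 bases apart, and both are among the 20 largest increases. Ccr2, 70226 bases from Ccr3, had 4.67 with LPS and 6.73 in Control. Havcr2, 12210 bases from Med7, had 7.53 with LPS and 10.01 in Control. These pairs are examples, and other neighbours past 1.5-fold went the same way or the opposite way. Mycbp2, 56838 bases from Acod1, had 8.59 with LPS and 9.30 in Control. Gbp9, 93653 bases from Abcg3, had 9.45 with LPS and 8.19 in Control. Some neighbours lay within 1.5-fold. Gpr141, 16725 bases from Gpr141b, had 7.29 with LPS and 7.50 in Control, and Jak2, 8259 bases from Insl6, had 11.26 with LPS and 10.70 in Control, a difference of 0.56 in the direction of Insl6, with LPS above all 4 untreated arrays.

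Antigen presentation split by MHC class. Of 17 genes of MHC class II and its loading on the array, 12 were compared, 9 were lower and 0 higher, with a median log2 difference of −1.16 over all 17. The master regulator Ciita had 7.11 in LPS DCs and 9.55 in Control DCs. H2-Oa and H2-Ob, which together form the peptide-editing modulator H2-O, had 6.33 and 5.45 with LPS and 9.11 and 7.99 in Control. H2-DMa, of the H2-M editor, had 7.74 with LPS and 9.73 in Control. The bright chain gene H2-Ab1 had 11.26 with LPS and 12.84 in Control, 2.98-fold lower. All 9 lower genes lay below all 4 untreated arrays. Of 23 genes of MHC class I and its loading, 21 were compared, 12 were higher and 2 lower, with a median of 0.64. Outside the acute-phase and interferon lists, 7 of 16 were higher. The non-classical H2-M2, named above, is 1 of the 2 lower ones. Nlrc5, the class I counterpart of Ciita, had 8.78 with LPS and 7.49 in Control, and the peptide transporter gene Tap2 had 7.55 with LPS and 6.37 in Control. H2-Q4 had 8.13 with LPS and 6.66 in Control. The class I genes share long sequences, so their probe sets are uncertain where the genes are near-identical.

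Genes of migratory DC maturation were the class with the largest share of higher genes among those described here. Of 33 on the array, 31 were compared, and 21 were higher and 2 lower, with a median of 0.94. Stat4, which carries the interleukin-12 signal, had 10.82 in LPS DCs and 8.20 in Control DCs. Fscn1, the actin-bundling protein fascin of mature DCs, had 10.39 with LPS and 8.36 in Control. Socs2, a cytokine feedback inhibitor, had 9.35 with LPS and 6.59 in Control. Bcl2l14 had 8.56 with LPS and 6.53 in Control, and Cd63, a tetraspanin of late endosomes, had 8.63 with LPS and 6.92 in Control. Outside the rule for named genes, the receptor Ccr7 had 11.77 with LPS and 10.33 in Control, and Cd83 was equal at 10.11 on both arrays.

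Costimulators were mixed. Of 27 genes of the B7, TNF-superfamily and other costimulators, 19 were compared, 10 were higher and 5 lower. Cd80 had 11.62 with LPS and 9.78 in Control, 3.59-fold, and Cd40 had 9.10 with LPS and 7.83 in Control. Cd200, whose product signals to the inhibitory receptor CD200R, had 9.05 with LPS and 6.55 in Control. Ly75, the endocytic lectin DEC-205, had 9.38 with LPS and 7.41 in Control. Tnfsf4, which encodes OX40L, had 5.84 with LPS and 4.66 in Control, against 4.39, 4.85 and 2.60 on the WT arrays. Its Control value lies under the floor of 5 by itself. Stk11, which encodes Lkb1, was equal at 7.10 on both arrays and is therefore outside the comparison. It had 6.73, 6.83 and 5.96 on the WT arrays, whose overall levels differ. After quantile normalization with the WT arrays, Stk11 had 7.32 with LPS and 7.29 in Control. The WT arrays then had 6.12, 6.51 and 6.52, so both lay above them. Tnfsf4 after the same step had 6.01 with LPS and 4.62 in Control, against 3.89, 4.79 and 3.31 on the WT arrays.

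Coinhibitory genes were more often higher than lower. Of 28 on the array, 18 were compared, and 8 were higher (44.4%, against 12.3% of all genes compared). Lower were 3 (16.7%, near the background of 14.5%), of which 2 lay below all 4 untreated arrays. Outside the acute-phase and interferon lists, 6 of 16 were higher. Havcr2, which encodes TIM-3 and is named above, was 5.59-fold lower, and Tgfb1 had 7.90 with LPS and 9.40 in Control. The ligand genes of PD-1 were higher, with Pdcd1lg2 at 7.42 with LPS and 5.84 in Control and Cd274 at 10.97 with LPS and 9.86 in Control. Pdcd1, the receptor itself, had 6.68 with LPS and 4.33 in Control. Of 27 genes of the TNF receptor superfamily, 13 were compared, 8 were higher and 1 lower. Fas, a death receptor, had 9.72 with LPS and 6.96 in Control, and Tnfrsf18 (GITR) had 8.73 with LPS and 6.86 in Control. Tnfrsf9 (4-1BB) had 7.72 with LPS and 5.95 in Control, and Tnfrsf11a (RANK) had 8.57 with LPS and 7.06 in Control. These receptors are known mainly from lymphocytes or osteoclast precursors as well as from DCs.

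**Figure D3:**
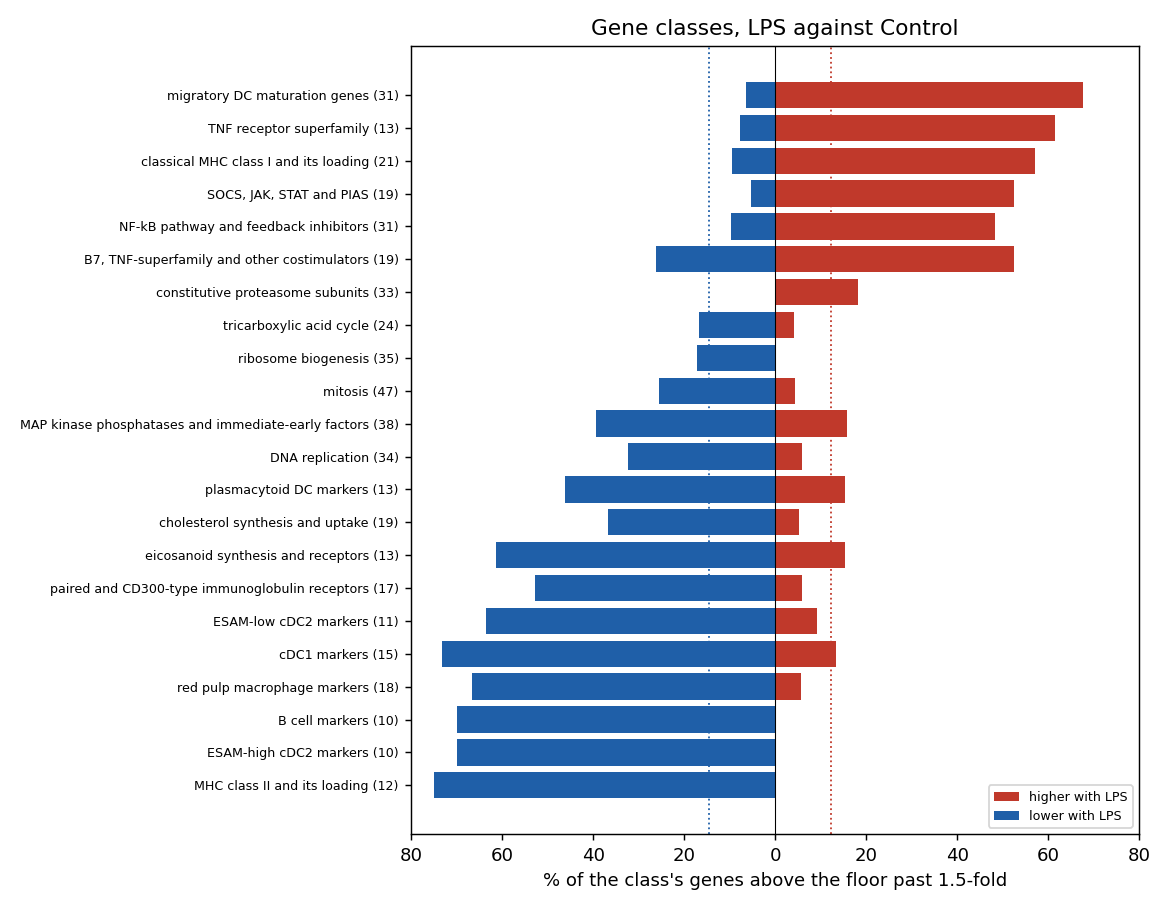
Percent of the genes compared in each class that were higher with LPS (red bars, to the right) or lower (blue bars, to the left) by at least 1.5-fold. The number of genes compared stands beside each class, and dotted lines mark the background of 12.3% higher and 14.5% lower. Migratory DC maturation genes have the longest red bar (21 of 31) and MHC class II genes the longest blue one (9 of 12).

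The NF-κB and the SOCS, JAK and STAT classes held more higher than lower genes, and the MAP kinase phosphatases and immediate-early factors more lower than higher ones. Of 34 genes of the NF-κB pathway and its feedback inhibitors, 31 were compared, 15 were higher and 3 lower, with a median of 0.53. Tnip3, named above, had 9.23 in LPS DCs and 6.03 in Control DCs, and its relative Tnip2 had 8.22 with LPS and 5.97 in Control. Ikbke, a kinase that also acts in interferon induction, had 7.54 with LPS and 4.80 in Control. Map3k14, the kinase NIK of the alternative pathway, had 8.43 with LPS and 7.09 in Control. Zc3h12c, an RNA-binding protein, had 6.65 with LPS and 7.75 in Control. All 15 higher genes lay above all 4 untreated arrays, and 1 of the 3 lower genes lay below them.

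Of 25 genes of SOCS, JAK, STAT and PIAS proteins, 19 were compared, 10 were higher and 1 lower, with a median of 0.55, and outside the acute-phase and interferon lists 8 of 17 were higher. Socs3, an inhibitor of interleukin-6 signalling, had 8.27 with LPS and 5.98 in Control. Stat2 had 9.52 with LPS and 7.65 in Control, and Stat3 had 10.44 with LPS and 9.30 in Control. Ptpn1, a tyrosine phosphatase that acts on JAK kinases, had 8.37 with LPS and 7.15 in Control. Of 44 immediate-early factors and MAP kinase phosphatases, 38 were compared, 6 were higher, 15 lower and 17 within 1.5-fold, with a median of −0.25. Egr1 had 6.65 with LPS and 9.09 in Control, 5.46-fold lower. Fosb had 8.37 with LPS and 10.58 in Control, and Nr4a1 had 9.81 with LPS and 11.62 in Control. The 15 lower genes all lay below all 4 untreated arrays. Genes of this class respond within minutes to many stimuli.

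Receptors for chemokines and other attractants changed in both directions. Of 34, 17 were compared, with 5 higher and 5 lower. Beside Ccr3 and Xcr1, Cx3cr1 had 5.82 in LPS DCs and 7.36 in Control DCs. Cxcr5, which leads cells to the B cell follicle, had 8.04 with LPS and 5.45 in Control. Fpr2, a receptor for formylated peptides, had 8.29 with LPS and 5.84 in Control. Among 57 interleukin and related genes, 15 were compared, 9 were higher and 4 lower (2 of them below all 4 untreated arrays). Il6 had 6.87 with LPS and 3.86 in Control, Il1a had 8.59 with LPS and 6.57 in Control, and Ltb, of the lymphotoxin complex, had 6.10 with LPS and 8.32 in Control.

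Sensors of microbes were more often lower. Of 30 Toll-like receptor and adaptor genes, 23 were compared, 3 were higher and 8 lower. Tlr3, which detects double-stranded RNA in cDC1, had 4.41 with LPS and 7.44 in Control. Tlr11, a receptor for protozoan profilin, had 4.74 with LPS and 7.17 in Control. Both Tlr3 and Tlr11 are also on the list of cDC1 markers described below, and Tlr3 is an interferon list gene. Cd180, a relative of Toll-like receptor 4, had 7.28 with LPS and 9.30 in Control, and Tlr5, the flagellin receptor, had 5.45 with LPS and 7.39 in Control. Against them stood Cd14, a co-receptor for LPS, with 8.43 in LPS DCs and 6.90 in Control DCs, and Irak3, an inhibitory kinase of the pathway, with 7.67 with LPS and 6.52 in Control. The BCL2 family and linked survival genes had 4 higher and 0 lower of 15 compared. They included Bcl2l11, a killer protein, at 9.08 with LPS and 7.13 in Control, and Birc2, an inhibitor of apoptosis listed with them, at 9.57 with LPS and 7.57 in Control.

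Paired receptors and integrins held more lower than higher genes. Of 27 paired and CD300-type immunoglobulin receptors, 17 were compared, 9 were lower (6 of them below all 4 untreated arrays) and 1 higher. They included Cd300ld at 6.25 in LPS DCs and 7.81 in Control DCs and the adaptor Tyrobp (DAP12) at 8.99 with LPS and 10.08 in Control. Of 30 integrins, 13 were compared, 6 were lower and 2 higher. Itgax, the CD11c chain by which DCs are commonly sorted, had 7.58 with LPS and 10.31 in Control, 6.62-fold lower and below all 4 untreated arrays. Itgb5 had 5.13 with LPS and 7.36 in Control, whereas Itga5, of the fibronectin receptor, had 6.77 with LPS and 5.51 in Control. Among C-type lectins, 14 of 45 were compared, with 4 higher and 5 lower. Clec7a (dectin-1) had 7.40 with LPS and 9.43 in Control, and Clec4e (Mincle) had 7.56 with LPS and 5.28 in Control. Of 24 adhesion G protein-coupled receptors, 5 were compared, with 1 higher and 3 lower. Adgrg6 was the higher one at 9.86 with LPS and 7.31 in Control. Adgre4, 1 of the lower ones, had 7.90 with LPS and 10.32 in Control.

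Metabolic classes differed in how many genes were past 1.5-fold. Of 95 genes of oxidative phosphorylation, 46 were compared, and 1 was higher and 2 lower. Of 24 tricarboxylic acid cycle genes compared, 1 was higher and 4 lower (16.7%, near the background of 14.5%). Mdh2, malate dehydrogenase of the mitochondria, had 8.78 in LPS DCs and 10.47 in Control DCs, and Idh2 had 6.00 with LPS and 7.34 in Control. Of 15 glycolysis genes compared, 3 were higher and 3 lower. Pfkfb3, which makes the activator of phosphofructokinase, had 10.37 with LPS and 8.43 in Control, but the glucose transporter Slc2a3 had 4.25 with LPS and 6.75 in Control. Besides Acod1, the tryptophan enzymes Kmo and Kynu had 7.04 and 7.04 with LPS and 9.50 and 8.00 in Control, with Kynu within the range of the untreated arrays.

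The cholesterol and eicosanoid classes held more lower than higher genes. Of 24 genes of cholesterol synthesis and uptake, 19 were compared, with a median of −0.45. Of these, 7 were lower (4 of them below all 4 untreated arrays) and 1 higher. Only 1 was lower at 2-fold, and against the mean of the WT arrays the median was −0.09. Sqle, the squalene oxidase, had 4.70 with LPS and 5.75 in Control, and Srebf2, the regulator of the pathway, had 7.56 with LPS and 8.50 in Control. Pmvk went the other way, with 8.41 with LPS and 7.06 in Control. Of 31 eicosanoid genes, 13 were compared, 8 were lower and 2 higher. Hpgd, which degrades prostaglandins, had 7.08 with LPS and 9.57 in Control. Alox5ap and Lta4h, which act in leukotriene synthesis, had 7.99 and 6.70 with LPS and 10.04 and 8.45 in Control. Fatty acid genes had 6 higher and 8 lower of 26 compared, among them the carrier Fabp5 at 8.87 with LPS and 5.97 in Control and the uptake receptor Cd36 at 5.15 with LPS and 7.52 in Control.

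Iron and antioxidant genes followed. Of 22 genes of iron, zinc and haem handling compared, 6 were higher and 5 lower, and 3 of the 6 are in neither the acute-phase nor the interferon list. Beside the exporter Slc40a1, the transferrin receptor Tfrc had 4.47 in LPS DCs and 6.32 in Control DCs, and Hfe, which binds it, had 6.09 with LPS and 8.00 in Control. The metallothionein Mt2, an acute-phase list gene, had 10.39 with LPS and 6.22 in Control. In the antioxidant class the cystine transporter Slc7a11 had 7.43 with LPS and 5.17 in Control, and Sod2, the mitochondrial superoxide dismutase, had 9.93 with LPS and 7.67 in Control. Lysosomal enzymes were lower in 9 and higher in 6 of 30 compared. Ppt1, a lysosomal thioesterase, had 8.41 with LPS and 10.90 in Control, and Ctse, a cathepsin, had 7.49 with LPS and 9.54 in Control, with LPS within the range of the untreated arrays.

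Protein synthesis and degradation differed by smaller amounts. Of 33 constitutive proteasome subunit genes compared, 6 were higher and 0 lower, with a median over 39 genes of 0.24. None was higher at 2-fold, and against the mean of the WT arrays the median was 0.56. Psmd7 had 8.64 in LPS DCs and 7.84 in Control DCs. Of 35 ribosome biogenesis genes compared, 0 were higher and 6 lower, with a median of −0.28, and Dkc1, a pseudouridine synthase, had 5.51 with LPS and 6.38 in Control. Translation factors had 1 higher and 9 lower of 48, and endoplasmic reticulum chaperones 1 higher and 7 lower of 31. Of 42 cytosolic ribosomal protein genes compared, 1 was higher and 2 lower. For all of these classes but the proteasome, the share of lower genes lay between 4.8% and 22.6%, around the background of 14.5%.

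At 1.5-fold, genes of cell division were lower more often than the background. Of 34 DNA replication genes compared, 2 were higher and 11 lower, and of 47 mitosis genes 2 were higher and 12 lower. Below all 4 untreated arrays lay 9 of the lower DNA replication genes and 12 of the lower mitosis genes. At 2-fold, 3 DNA replication and 3 mitosis genes were lower. The class medians were −0.19 and −0.16, and against the mean of the WT arrays −0.51 and −0.70. Mki67, a marker of cycling cells, had 7.86 in LPS DCs and 8.79 in Control DCs. Kif23 had 6.21 with LPS and 7.79 in Control, and Mcm3, of the replicative helicase, had 6.06 with LPS and 7.11 in Control. Gins3, of the same helicase complex, was an exception at 7.68 with LPS and 5.82 in Control. The D-type cyclins went opposite ways. Ccnd1 had 6.82 with LPS and 9.22 in Control, and Ccnd2 had 9.88 with LPS and 7.49 in Control. The cell cycle inhibitor Cdkn1a (p21) had 9.35 with LPS and 8.13 in Control.

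Transcription factors of the DC lineage were lower in 12 and higher in 6 of 27 compared. Bcl11a, needed for plasmacytoid DCs and B cells, had 5.44 in LPS DCs and 8.07 in Control DCs. Irf8, which cDC1 need, had 7.80 with LPS and 9.35 in Control, and Bcl6 had 7.70 with LPS and 8.86 in Control. Nfil3 had 9.05 with LPS and 7.26 in Control, and Prdm1 (Blimp-1) had 7.77 with LPS and 6.59 in Control. Notch genes had 2 higher and 5 lower of 15 compared. The ligand Dll4 was higher, and the target Hes1 had 6.12 with LPS and 7.14 in Control.

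Markers of cell types within the sorted cells moved too. In bulk samples, fewer cells of a type and less RNA per cell cannot be told apart. Of 20 cDC1 markers, 15 were compared, 11 were lower and 2 higher, with a median over all 20 of −1.80. Their summed linear signal was 2784 in LPS DCs and 7645 in Control DCs. Rab7b had 5.82 with LPS and 8.57 in Control, and Cd8a had 7.52 with LPS and 9.27 in Control. Not every cDC1 gene was lower. The lineage factor Batf3 had 7.30 with LPS and 6.98 in Control, and Ly75 was higher as given above.

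The cDC2 markers were lower as well. Of 13 ESAM-high cDC2 markers, 10 were compared, 7 were lower and 0 higher, and their summed signal was 2627 with LPS and 5524 in Control. Cd4 had 6.60 with LPS and 9.17 in Control, whereas Esam itself had 5.37 with LPS and 5.65 in Control. Of 13 ESAM-low cDC2 markers, 11 were compared, with 1 higher and 7 lower and a summed signal of 3079 with LPS and 4832 in Control. Of 21 plasmacytoid DC markers, 13 were compared, 2 were higher and 6 lower, and Siglech had 4.79 with LPS and 6.43 in Control. Of 11 genes listed as markers of DCs in general, 10 were compared, 1 was higher (Ccr7) and 4 lower (Itgax, Kmo, H2-Ab1 and H2-Aa). Their summed signal was 11391 with LPS and 18278 in Control, and it includes the bright H2-Ab1, named above with MHC class II. The 4 lower genes lay below all 4 untreated arrays. Flt3 had 9.69 with LPS and 9.79 in Control, and Zbtb46 had 6.91 with LPS and 7.01 in Control.

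Markers of other cells were measured beside these. Of 20 red pulp macrophage markers, 18 were compared, 12 were lower and 1 higher, with a summed signal of 8967 in LPS DCs and 14108 in Control DCs. Vcam1 had 8.63 with LPS and 10.62 in Control, and Cd5l had 5.85 with LPS and 8.24 in Control, but Spic, their lineage factor, had 10.40 with LPS and 9.97 in Control and Hmox1 had 10.75 with LPS and 10.53 in Control. Of the 12 lower genes, 9 lay below all 4 untreated arrays. Slc40a1, Mrc1 and Marco, the 1 higher gene, are on this list as drawn up here. Whether each listed gene is particular to red pulp macrophages was not checked, Marco included. The part of any macrophages in these values was not tested. Of 17 B cell markers, 10 were compared, 7 were lower and 0 higher, with a summed signal of 700 with LPS and 1561 in Control. Cd79a had 5.86 with LPS and 7.62 in Control. B cells also carry MHC class II genes, Bank1 (6.03 with LPS and 8.47 in Control) and H2-Ob, so the part of B cells in the lower class II values was not tested.

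Markers of T cells, monocytes, neutrophils and NK cells were checked as well. Of 13 T cell markers, 10 were equal on both arrays, and Cd3e was at 5.45 on each. Il7r was the only higher T cell marker. Of 19 monocyte markers, 16 were compared, 6 were higher (2 of 12 outside the acute-phase and interferon lists) and 4 lower, with a summed signal of 6109 in LPS DCs and 5485 in Control DCs. Higher were Ms4a6d, Gda (8.34 with LPS and 6.22 in Control), Chil3 (6.93 with LPS and 3.71 in Control) and Fcgr4 (10.14 with LPS and 8.37 in Control), while Ccr2 and Csf1r (8.88 with LPS and 10.41 in Control) were lower. The Chil3 value lay within the range of the untreated arrays. Of 19 neutrophil markers, 8 were equal, 8 too dim and 3 compared, with a summed signal of 2545 with LPS and 1569 in Control. Lcn2, an acute-phase list gene, was the higher one at 10.28 with LPS and 4.77 in Control, and Il1r2 the lower one at 9.10 with LPS and 9.83 in Control, and for both LPS lay within the range of the untreated arrays. Of those too dim, Ly6g had 4.15 with LPS and 3.58 in Control and S100a8 had 4.43 with LPS and 2.73 in Control. Of 14 NK cell markers, 9 were compared, 3 were higher and 2 lower, with a summed signal of 1222 with LPS and 1188 in Control. Of these, 1 higher and 1 lower gene lay beyond all 4 untreated arrays. Gzmb had 7.71 with LPS and 5.04 in Control and Klrd1 had 6.83 with LPS and 8.57 in Control. The part of any of these cells in the differences above was not tested.

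**Figure D4:**
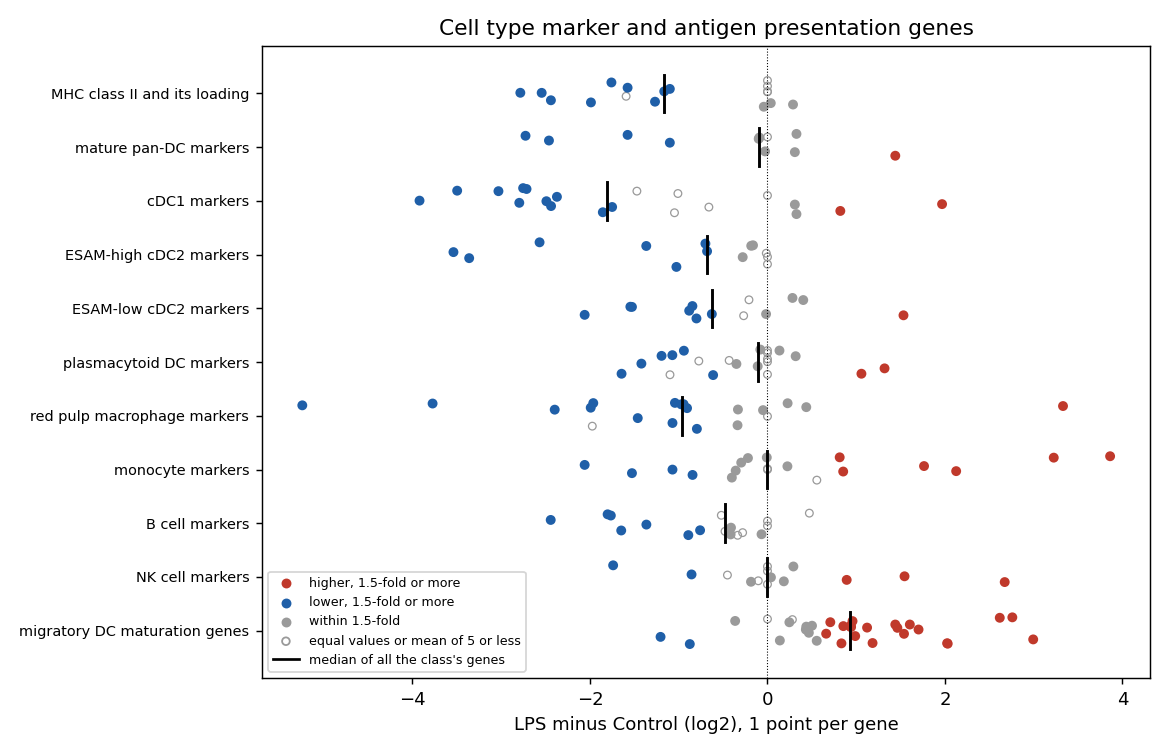
Log2 difference, LPS minus Control, of each gene of the cell type marker lists and of the antigen presentation and maturation classes. Each point is 1 gene, coloured by its call, open circles are genes outside the comparison, and black bars are medians over all genes of a list. The cDC1 median lies at −1.80 and the migratory DC maturation median at 0.94.

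MicroRNA genes on this array reflect the primary transcript or its host gene and not the mature molecule. Of 483 on the array, 53 were compared, 8 were higher (15.1%, against 12.3% of all genes compared) and 1 lower. The mature sequences of 3 of them are shown from RefSeq (GRCm38.p6), with the seed (bases 2 to 8) in capitals, because 2 of them lie inside protein-coding genes that were also higher.
mmu-miR-3109-5p: aAUGGAUGcgaugguucccaugcu
mmu-miR-5104: cUGUGCUAgugagguggcucagca
mmu-miR-29a-3p: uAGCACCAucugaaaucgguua
The 3 seeds differ. Mir3109 had 6.19 in LPS DCs and 4.25 in Control DCs, and its host Anxa2, an annexin, had 9.29 with LPS and 7.36 in Control, so the differences were 1.94 and 1.93. Mir5104 had 6.86 with LPS and 5.51 in Control, and its host Zc3h12d had 8.25 with LPS and 7.43 in Control. Mir1927, whose sequence is not shown, had 6.08 with LPS and 4.74 in Control, and its host Rabgap1l had 8.42 with LPS and 6.45 in Control. Mir29a, with no host found, had 5.59 with LPS and 4.92 in Control. Mir1907, the lower one, had 5.57 with LPS and 6.20 in Control, and its host Trps1 had 7.45 with LPS and 8.09 in Control. The Mir1907 value lay within the range of the untreated arrays. Not every host moved with its microRNA gene, since Igf2 was equal on both arrays and Mir483 inside it had 6.96 with LPS and 6.31 in Control.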

How the data were processed

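Total RNA of DCs sorted from spleen was measured on Affymetrix arrays of the type Mouse Gene 2.0 ST. The authors deposited log2 values, 1 for each probe set on an array, and the methods name GeneSpring for their analysis. The submitters' notes name MAS5 with no version. How probes were summarised and arrays normalized is not given in the sources used here. The median was 4.14 on the LPS and the Control array, and 53% of the probe sets with 1 symbol were equal on both, 28.6% above the floor and 69% at or under it. What made them equal was not tested. The table holds 41345 probe sets, 33649 of them with values on both arrays. GEO's platform annotation gave 1 symbol to 23521, several to 1820 and none to 16004, and 23328 were found in RefSeq by gene number.

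The deposited log2 values were used as they are, and LPS minus Control was taken per probe set (Python 3.11.15, pandas 2.3.3, numpy 2.4.6, matplotlib 3.10.9). A call needs a difference of 1.5-fold, and 85 gene classes were described by 1 probe set a gene, the brightest. Class medians cover all genes of a class with values on both arrays. Summed signals are sums of 2 to the power of the log2 value over a list's genes on the array. The members, lists and motifs were chosen with earlier results of these data known. Genes were named by rule: the 20 largest increases and 20 largest decreases outside both lists set aside, up to 6 members with the largest difference in each class described, defining markers of cell types, Stk11 and Tnfsf4. Neighbouring genes, hosts of microRNAs, Ccr7, Cd83, H2-Aa, Lcn2 and Il1r2 were named after their values were seen. Having 1 array a condition limits the precision. The script was tested on simulated data. Alternatives were quantile normalization, 16 added to linear values, the WT arrays as reference, other floors and a 2-fold call.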

Additional observations from a re-analysis of the deposited data

How the results depend on the processing

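No paired analysis was possible because the comparison is 1 array against 1 and no test was run. Of the 823 higher and 950 lower probe sets, a 2-fold call left 420 and 429, and taking the mean of the 3 WT arrays as the reference gave 1779 and 1674 (1781 to 1887 and 1676 to 1825 with 1 WT array left out). The WT arrays come from another mouse line and differ in level. Both arrays above 5 gave 744 and 821, and no other setting moved the counts by over 1.5 times. All 41 genes named for their size of change, with Tnfsf4, kept their direction in the settings tried. Of 22 class medians, 20 kept their direction against the WT mean, 20 under quantile normalization and 22 with 16 added, and the others (TNF receptor superfamily and eicosanoid genes) had a median of 0 between LPS and Control.

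The cDC1 median was −2.44 over compared genes alone. The MHC class II median was −0.70 to −0.96 with a WT array left out. For ESAM-high cDC2 markers it was −1.10 against the WT mean and −0.94 to −1.33 with 1 left out, and for markers of red pulp macrophages and B cells −0.37 to −0.77 and −0.98 to −2.40 with 1 left out. The maturation median was 0.76 with quantile normalization, 1.43 against the WT mean and 1.31 to 1.53 with 1 left out. The NF-κB median was 0.59 to 0.82 with 1 left out, and the SOCS median 0.88 over compared genes and 0.64 to 0.80 with 1 left out. The immediate-early median was −0.63 against the WT mean and −0.51 to −0.72 with 1 left out. The tricarboxylic acid cycle median of −0.13 turned to 0.071 against the WT arrays without replicate 2 and to 0.069 without replicate 3, and was −0.075 without replicate 1. The cause of these changes was not tested.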
